A study of Mus musculus with 18 samples.

Results

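The genes described here are 38 interferon-stimulated genes of the mouse, measured in single cells of the dorsal dermis. They are the genes of a list of 39 whose symbols name a row of the deposited matrices, which hold 32285 genes, and the remaining gene of the list, Mx1, is not analysed here. By function they fall into 10 type I genes (Ifit1, Ifit2, Ifit3, Ifit3b, Oas1a, Oas2, Oas3, Oasl1, Oasl2 and Isg15), 10 GTPases (Gbp2, Gbp3, Gbp5, Gbp6, Gbp7, Irgm1, Irgm2, Igtp, Iigp1 and Ifi47), 4 transcription factors (Stat2, Irf1, Irf7 and Irf9), 3 sensors of foreign nucleic acid (Ifih1, Dhx58 and Zbp1), the feedback inhibitor Usp18, and 10 other antiviral and induced genes (Cmpk2, Rsad2, Ifi44, Ifi35, Eif2ak2, Bst2, Xaf1, Trim30a, Ifi27l2a and Parp14). "Type I" and "GTPases" are names of convenience, since genes of both classes can respond to more than 1 kind of interferon.

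Type I interferons, such as interferon beta, signal through a receptor of IFNAR1 and IFNAR2 to a complex that holds STAT2 and IRF9 and binds the interferon-stimulated response element of Ifit, Oas and Isg15 genes. Interferon gamma, made mainly by T cells and NK cells, acts through gamma-activated sites and induces the transcription factor IRF1, the guanylate-binding proteins (Gbp) and the immunity-related GTPases (Irgm, Igtp, Iigp1 and Ifi47), which act against microbes held in vacuoles.

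The 18 libraries came from 18 wild-type (WT) male C57BL/6J mice, adults in the resting phase of the hair cycle that were kept in a light-dark cycle, with 3 mice at each of 6 zeitgeber times (ZT, hours after lights on), namely ZT2, ZT6, ZT10, ZT14, ZT18 and ZT22. All mice were untreated and of 1 genotype, so time of day is the only factor of the design, and the 3 replicates of a time were collected on different days. Collagenase-digested dermis was sorted for live cells and sequenced as 3′ ends of transcripts with unique molecular identifiers (UMIs), with 1 library per mouse. The study followed the dermal clock over the day in these cells, and the question put to the members here is whether their levels followed the time of day, the cell type or the individual library.

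Promoters of 30 of the 39 listed genes are in the RefSeq table for GRCm38.p6 used here, and were searched over the 250 bases before the start site. The core of the interferon-stimulated response element, searched as GAAA, any 2 bases and GAAA again, or its reverse complement with TTTC in place of GAAA, was present in 17 of the 30 promoters (56.7%), against 3.46% of the 27025 genes in the table. The letters TTCNNNGAA, the core of the gamma-activated site, which reads the same on both strands, were present in 9 of 30, against 8.13% of all genes. Both were present in 6 of 30, against 0.459% of all genes. Among the type I genes 6 of 9 promoters held the first motif and 1 held both, and among the GTPases 7 of 8 held the first and 4 held both. Of the GTPases with both, Igtp and Irgm2 start close together on the plus strand of chromosome 11 (58199556 and 58199618). Their matches are equally spaced, at -34 and -45 in Igtp and at -64 and -75 in Irgm2. The counts can therefore hold 1 stretch of DNA for both genes. No match to either stood in these windows of Oasl1, Oasl2, Irf7, Irf9, Xaf1, Cmpk2, Ifi44, Ifi35, Ifih1 and Ifi47. These matches are descriptions of letters, not of binding.

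The sequences below, from RefSeq, end just before the gene and run 5′ to 3′ on the gene's own strand. They are shown as examples of how the motifs are placed in genes described further on, type I genes (Isg15, Ifit1, Ifit3), their companion Rsad2, GTPases with both motifs (Gbp7, Igtp) and Irf1. Capitals mark every match to either motif, on either strand, and overlapping matches run together. The regions are chr4:156200819-156200978 on the minus strand (Isg15), chr19:34640729-34640870 on the plus strand (Ifit1), chr19:34583369-34583528 on the plus strand (Ifit3), chr12:26456453-26456612 on the minus strand (Rsad2), chr3:142530176-142530335 on the plus strand (Gbp7), chr11:58199396-58199555 on the plus strand (Igtp) and chr11:53769854-53770013 on the plus strand (Irf1), all in GRCm38.
Isg15: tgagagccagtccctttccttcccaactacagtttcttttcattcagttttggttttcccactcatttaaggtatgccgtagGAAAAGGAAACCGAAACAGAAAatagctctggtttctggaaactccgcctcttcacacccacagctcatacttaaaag
Ifit1: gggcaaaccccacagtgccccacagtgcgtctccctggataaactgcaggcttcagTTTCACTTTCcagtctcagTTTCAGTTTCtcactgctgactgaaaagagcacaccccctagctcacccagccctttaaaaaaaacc
Ifit3: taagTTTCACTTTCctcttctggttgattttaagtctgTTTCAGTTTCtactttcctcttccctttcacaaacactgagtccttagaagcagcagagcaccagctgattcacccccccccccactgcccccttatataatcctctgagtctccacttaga
Rsad2: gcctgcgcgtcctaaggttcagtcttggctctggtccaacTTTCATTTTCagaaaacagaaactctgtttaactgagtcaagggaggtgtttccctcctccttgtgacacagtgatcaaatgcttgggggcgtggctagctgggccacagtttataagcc
Gbp7: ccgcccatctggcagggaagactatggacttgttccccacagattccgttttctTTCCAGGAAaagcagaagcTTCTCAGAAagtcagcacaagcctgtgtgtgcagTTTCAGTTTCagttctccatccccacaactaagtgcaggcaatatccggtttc
Igtp: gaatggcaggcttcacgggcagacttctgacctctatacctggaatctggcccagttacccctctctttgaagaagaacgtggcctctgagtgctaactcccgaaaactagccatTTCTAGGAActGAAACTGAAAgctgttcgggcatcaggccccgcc
Irf1: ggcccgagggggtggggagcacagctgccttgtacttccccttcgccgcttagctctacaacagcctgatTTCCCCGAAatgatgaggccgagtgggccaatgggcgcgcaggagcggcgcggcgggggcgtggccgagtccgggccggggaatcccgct
Isg15 holds 3 overlapping copies of the first motif and none of the second, and Ifit1 and Ifit3 hold 2 copies each. Gbp7 and Igtp hold 1 copy of the first motif beside the second, and Irf1 holds the second motif alone.

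The deposited matrices held 23990 barcodes, of which 16877 passed the filter on cells. Clusters named by marker genes, with the 38 genes left out of the clustering, gave 11833 fibroblast-like cells (101 to 1509 per library), 1848 macrophage-like cells (20 to 255) and 1451 other immune cells (10 to 280), with median depths of 21811, 12008.5 and 9413 UMIs per cell. The other immune cells were 953 cells of a myeloid cluster led by Lyz1, Ear2, Il1b and Ly6c2, 273 T and NK-like cells, 149 neutrophil-like cells, 54 mast-like cells and 22 dendritic cell-like cells. Another 986 cells stayed unnamed and enter only the sums over all kept cells. Summed UMIs per library were between 3777201 and 40094033 in all kept cells, and as low as 270326 in macrophages and 151726 in other immune cells, so counting error is largest there. The 8 macrophage markers summed to between 184 and 237 UMIs per 10000 in the macrophages of every library and to between 0.153 and 0.282 in fibroblasts. Across libraries, 36 barcode sequences were shared, by 73 kept cells. Levels below are UMIs per 10000 UMIs in the summed cells of a library, and UMIs of 3′ ends do not scale with transcript length.

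ZT14 replicate 1 stood apart from the other libraries in these genes, and since it was singled out from earlier results of the same data its values are given as a description with no test. It differed in depth too, with a median of 32450 UMIs per fibroblast against 18211.5 to 27545.5 in the other libraries. Its macrophages had 23516.5 against 8742 to 16061, and its other immune cells 5906 against 5346 to 13746.5. Rhythm calls from edgeR are given with and without this library.

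In all kept cells the 10 type I genes summed to 10.9 UMIs per 10000 in ZT14 replicate 1, while the other 17 libraries lay between 1.79 and 5.14 with a median of 2.73, a ratio of 4.01 to that median. The 10 GTPases summed to 5.24 in the same library and to between 2.05 and 4.31, median 2.87, in the others, a ratio of 1.82. ZT14 replicate 1 was the highest of the 18 libraries for both classes, and ZT2 replicate 3 was the next for both. The log2 ratio of type I to GTPase UMIs was 1.06 in ZT14 replicate 1 and between -0.68 and 0.37 in the others, 1.04 above their median of 0.03 (SD 0.23 over the 17). The type I genes therefore exceeded the other libraries by more than the GTPases did. Sums over all kept cells also depend on the mix of cells. Of the 625 kept cells of ZT14 replicate 1, 263 were fibroblasts and 271 were macrophages or other immune cells. Its 6 fibroblast markers summed to 455 UMIs per 10000 against 538 to 966 in the others, and its 6 neutrophil markers to 37.0 against 0.0287 to 2.39. The part of this mix in the ratios was not tested.

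The same order of classes held in each cell group, with unequal size. In fibroblasts the type I sum was 7.39 in ZT14 replicate 1 against 1.99 to 3.93 (median 2.65), and the GTPase sum 5.30 against 2.10 to 3.98 (median 2.99), ratios of 2.79 and 1.77. In macrophages the type I sum was 18.6 against 3.49 to 12.7 (median 6.98), and the GTPase sum 9.49 against 3.53 to 9.62 (median 5.88), ratios of 2.66 and 1.62. In other immune cells the type I sum was 24.8 against 0.769 to 14.5 (median 2.87), a ratio of 8.62, and the GTPase sum 3.53 against 0.878 to 5.80 (median 1.63), a ratio of 2.16. Of the 5124 type I UMIs in other immune cells of ZT14 replicate 1, 3222 came from 92 neutrophil-like cells. These cells held 440701 of the 2070170 UMIs of that group, and the other 17 libraries together had 57 such cells. The sums and ratios for other immune cells include them. With these cells included, ZT14 replicate 1 was above every other library for type I genes in all 3 groups. Within the myeloid cluster, the largest of the other immune cells, it was not, at 12.2 against 15.8 in ZT2 replicate 3. For GTPases ZT18 replicate 1 was higher in macrophages and ZT2 replicate 3 in other immune cells. The log2 ratio of the classes in ZT14 replicate 1 exceeded the median of the others by 0.51 in fibroblasts, 0.74 in macrophages and 2.02 in other immune cells, neutrophil-like cells included. The SD over the others was 0.23, 0.31 and 0.90.

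**Figure D1:**
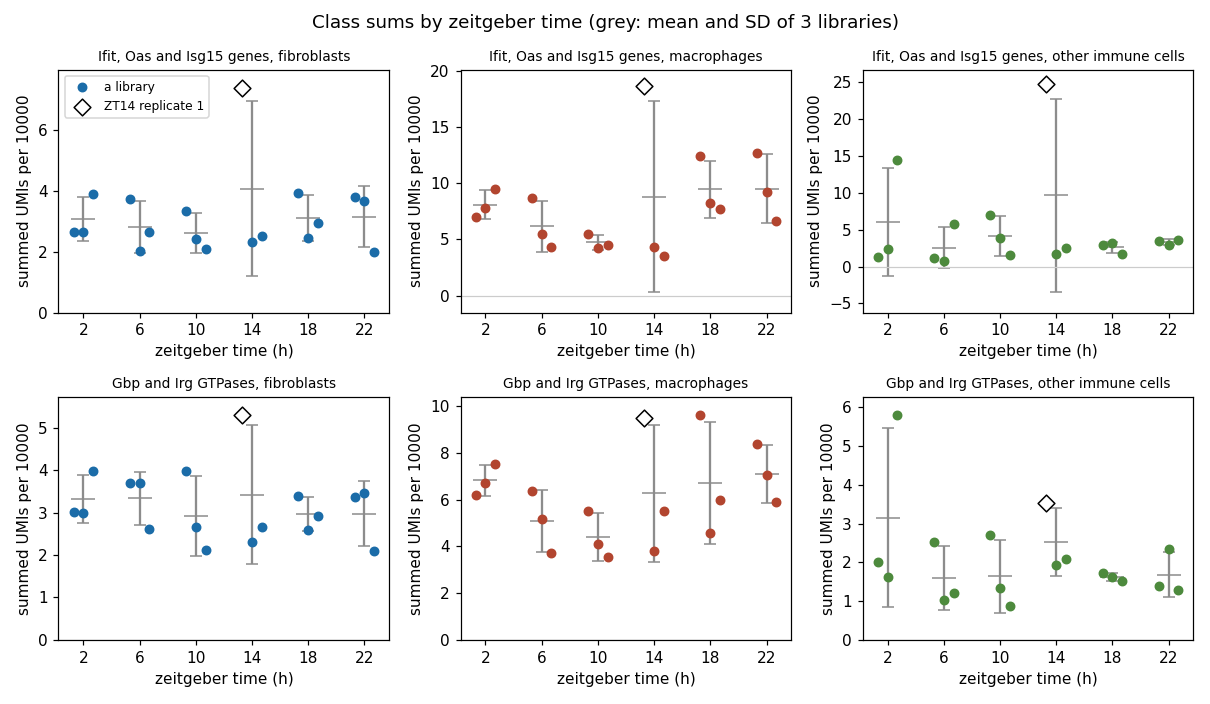
Summed UMIs per 10000 of the 10 type I genes (top) and 10 GTPases (bottom) by zeitgeber time in hours, for fibroblasts, macrophages and other immune cells. Each point is a library, grey marks are the mean and SD of the 3 libraries of a time, and the open diamond is ZT14 replicate 1, which lies above all other libraries in the top row (7.39, 18.6 and 24.8) but second to another library for GTPases in macrophages and other immune cells. The other immune cells include the neutrophil-like cells.

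Taken gene by gene, ZT14 replicate 1 was the highest of the 18 libraries for 35 of 38 members in all kept cells, where it was the highest for 22.2% of all 15004 genes with a mean of at least 5 UMIs per library. It was the highest for 34 of 37 such members in fibroblasts (20.3% of all genes), 26 of 38 in macrophages (16.5%) and 17 of 37 in other immune cells (10.1%). In macrophages ZT18 replicate 1 was the highest for 10 more (20.7% of all genes), and in other immune cells ZT2 replicate 3 was the highest for 18, which is more than ZT14 replicate 1 (6.48% of all genes). The exceptions in all kept cells were Gbp6, Irgm2 and Irf1.

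Isg15, a ubiquitin-like protein conjugated to targets and secreted, was at 3.55 in all kept cells of ZT14 replicate 1, against 0.272 to 1.54 (median 0.598) in the other libraries. In other immune cells it was at 11.6 against 0.179 to 5.25. Oas3, a synthetase of the 2-5A messenger that activates RNase L, had the largest ratio in all kept cells, 0.405 against a median of 0.0322 or 12.6-fold, and Rsad2 (viperin), which blocks viral replication, was at 1.58 against 0.172 or 9.17-fold. Ifit1, which binds viral RNA caps, was at 1.79 against 0.322 to 1.10, and Oasl2, a member of the Oas family, at 1.75 against 0.357 to 0.874. For each of these genes ZT14 replicate 1 lay above the other 17 libraries, of which ZT18 replicate 1 came nearest for Rsad2, at 1.18. The ratios in all kept cells include the mix of cells described above, and Oas3 was higher in both immune groups than in fibroblasts.

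The transcription factors differed among themselves. Irf7, the amplifier of interferon production, was at 1.44 in ZT14 replicate 1 against 0.385 to 1.32 (median 0.552), and Stat2, of the type I signalling complex, at 0.826 against 0.316 to 0.606. Irf1, the factor induced by interferon gamma, was at 0.739 against 0.714 to 1.58 (median 0.888), rank 17 of 18 in all kept cells, 15 in fibroblasts, 12 in macrophages and 14 in other immune cells. It was the only transcription factor of the 4 whose level in that library was below the median of the others, in all kept cells and in each of the 3 groups.

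Among the GTPases the ratios in all kept cells were between 1.07 (Gbp6) and 2.56 (Ifi47). Iigp1, which attacks vacuole membranes, was at 1.10 in ZT14 replicate 1 against 0.331 to 0.966, Gbp7 at 0.792 against 0.3005 to 0.5775, Gbp2 at 0.691 against 0.341 to 0.646, and Irgm1, a regulator of the other GTPases, at 0.484 against 0.162 to 0.381. In macrophages Gbp2 was at 0.524 in that library and ranked 10 of 18, and Gbp3 ranked 9. So the members of the Gbp family were not all high there.

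The sensors were high as well. In all kept cells Zbp1, a sensor of Z-form nucleic acid that can trigger necroptosis, was at 1.52 against 0.365 to 1.00, Ifih1 (MDA5) at 0.687 against 0.274 to 0.617, and Dhx58 (LGP2) at 0.288 against 0.0501 to 0.150. Usp18, the protease that strips Isg15 and dampens the type I receptor, was at 0.579 against 0.303 to 0.547, a ratio of 1.37 that was smaller for no member but Irf1 and Gbp6. Among the remaining genes Ifi27l2a, a small mitochondrial protein, had by far the highest level of the members, 20.3 ± 4.19 (SD, n = 18), with 30.8 in ZT14 replicate 1 against 15.1 to 28.5. Bst2 (tetherin), which holds virions at the cell surface, was at 4.64 against 1.77 to 4.11, and Trim30a, a ubiquitin ligase, at 1.94 against 0.559 to 1.04.

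**Figure D2:**
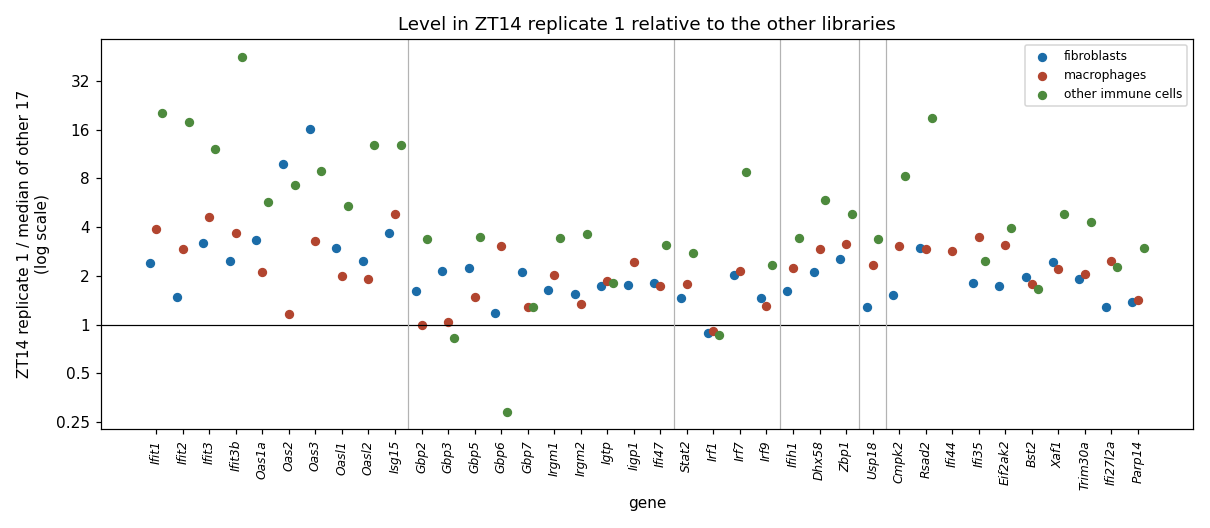
Ratio of each member's level in ZT14 replicate 1 to its median over the other 17 libraries, on a log scale, for fibroblasts, macrophages and other immune cells, with members of a class between grey lines (type I genes leftmost, then GTPases, transcription factors, sensors, Usp18 and the rest). Genes with a mean under 5 UMIs in the other 17 libraries of a group are left out, and Irf1 lies below 1 in all 3 groups.

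ZT2 replicate 3 held the second highest sums of both classes in all kept cells, 5.14 for type I genes and 4.31 for GTPases. Its other immune cells summed to 14.5 and 5.80, and the 18 members for which they were the highest of the libraries included Irf7 (4.73 against 2.37 in ZT14 replicate 1) and Ifi27l2a (42.3 against 22.1). Of these 280 cells, 229 belonged to the myeloid cluster led by Lyz1 and Ear2, against 953 of 1451 over all libraries. The part of this mix in the levels was not tested. In this library both classes were high together, and the log2 class ratio in all kept cells stayed within the range of the other libraries.

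**Figure D3:**
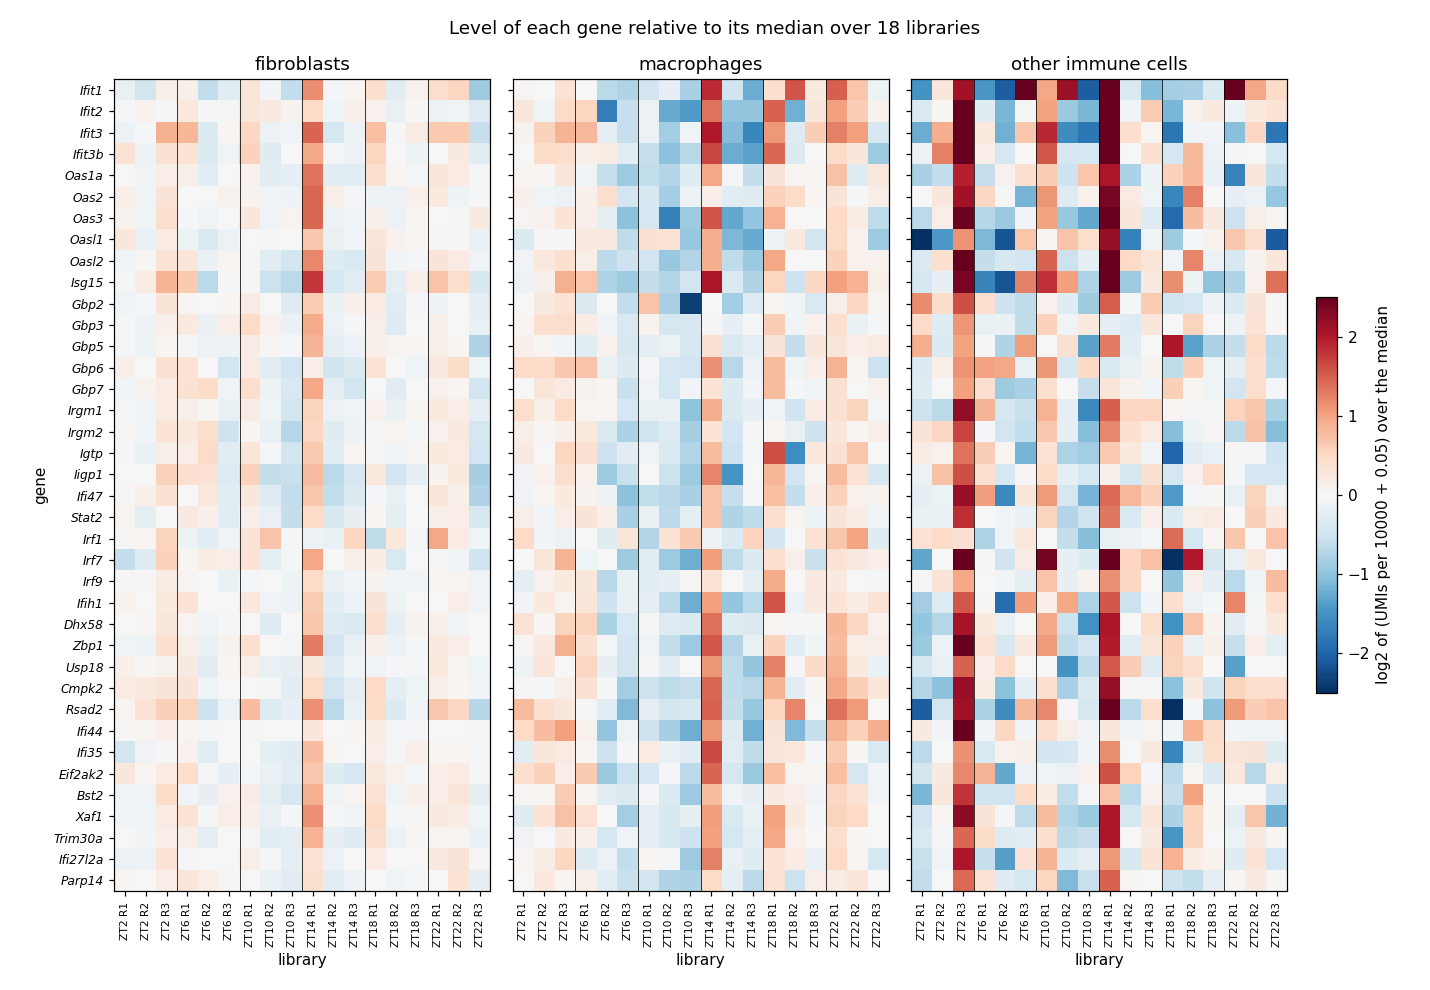
Log2 level of each of the 38 members (rows) in each of the 18 libraries (columns) relative to the member's median over the libraries, after adding 0.05 to the UMIs per 10000, in fibroblasts, macrophages and other immune cells. The column of ZT14 replicate 1 is red for most members in all 3 panels and not for Irf1, and the column of ZT2 replicate 3 is red among other immune cells.

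Which cells carried the UMIs differed by class. Over all libraries, the neutrophil-like cluster had the highest type I level of any cluster, 55.0 UMIs per 10000 over 149 cells, with 4.55 for GTPases. ZT14 replicate 1 supplied 92 of those cells, at 73.1 and 6.01, and the other 17 libraries 57 cells, at 24.5 and 2.07. T and NK-like cells had the opposite balance, 0.769 for type I genes and 3.42 for GTPases over 273 cells. Endothelial-like cells, with 27 cells, had the highest GTPase level, 12.0, beside 4.66 for type I genes. The larger macrophage-like cluster lay at 8.80 and 6.78, and the clusters named fibroblast-like between 2.32 and 3.92 for type I genes. A cluster of 732 cells led by Cthrc1 and Tnmd also held all 6 fibroblast markers. The naming rule left it unnamed, so it is not in the fibroblast sums. It was lower, at 0.625 for type I genes and 1.47 for GTPases. These are pooled cells and no test was made between clusters.

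High type I levels in ZT14 replicate 1 were also present outside neutrophil-like cells. Its macrophages of the larger cluster were at 19.0 type I UMIs per 10000 against 7.90 in the other 17 libraries. Its myeloid cells of the cluster led by Lyz1 and Ear2 were at 12.2 against 6.24. Among those 17 libraries ZT2 replicate 3 was higher, at 15.8, and held 4767 of their 7469 type I UMIs in that cluster. The fibroblasts of ZT14 replicate 1 differed by cluster, from 2.74 against 2.92 in a cluster with 14 of its cells to 4.87 against 3.45 in another and 10.9 against 3.57 in the cluster led by Cxcl10, Il6 and Ptgs2. Muscle-like cells of the same library were at 0.0929, from 7 UMIs, against 0.108 in the other libraries. A share of free RNA in any of these levels was not tested. The 6 neutrophil markers summed to 0.176 UMIs per 10000 in the fibroblasts of ZT14 replicate 1 (none of the 6 at 0) against 0.00570 to 0.0300 in the other libraries, and to 245 against 0 to 67.9 in its other immune cells. The 6 monocyte markers were also highest there in fibroblasts (16.3 against 6.98 to 13.01) and macrophages (7.84 against 1.70 to 6.44, with 2 of the 6 at 0), and the 8 dendritic cell markers lowest in macrophages (62.2 against 80.1 to 260) and other immune cells (68.3 against 177 to 332). In each fibroblast-like cluster only 1 of the 6 monocyte markers reached the threshold used to name clusters. Their sum had a median over the other 17 libraries of 10.3 in fibroblasts and 3.94 in macrophages. In fibroblasts it is therefore not a measure of monocytes. Whether any of these marker levels bear on the levels of the members was not tested.

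Within ZT14 replicate 1 the type I UMIs were spread over most fibroblasts. After thinning each cell to 5000 UMIs, its fibroblasts held a median of 2 type I UMIs and 24.9% had none, while in the other 17 libraries together the median was 0 and 50.2% had none, over 257 and 11232 cells. The top 5% of fibroblasts held 27.8% of the type I UMIs in ZT14 replicate 1 and 43.5% in the others. Its macrophages held a median of 5 and 5.06% had none, against a median of 2 and 23.97% in the others, over 79 and 1506 cells. For GTPases the fibroblast medians were 2 and 1, and 22.6% against 39.9% of cells had none. Before thinning, as levels in the summed cells, these are the class sums given above.

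The interferons themselves were rare. Ifnb1, interferon beta, had 1040 UMIs in all kept cells, between 0 and 147 per library, most in ZT2 replicate 2. ZT14 replicate 1 had 42 of them, at rank 8 of 18 by level, with 8 of the 793 in fibroblasts and 30 of the 112 in other immune cells. Those 112 came from 12 cells, with a median of 0 per library and at most 43, in ZT10 replicate 2. A UMI of Ifnb1 was found in 205 of 11833 fibroblasts (1.73%), 102 of them in the cluster led by Cxcl10, Il6 and Ptgs2, and in 0 of 732 muscle-like cells, which allows a share of cells with a UMI of up to 0.410%, at median depths of 21811 and 6598 UMIs, and sets no limit on cells that express the gene. Ifng, interferon gamma, had 323 UMIs in other immune cells, in 68 cells that all belonged to the T and NK-like cluster, and ZT14 replicate 1 held 10 of those UMIs. Ifna1, Ifna2, Ifna4, Ifna5, Ifne, Ifnl2 and Ifnl3 had no UMI in any library.

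Macrophages had higher levels than fibroblasts for most members. In sums of both groups from the same 18 mice, 31 of 38 members were higher in macrophages and 2 lower (quasi-likelihood test in edgeR, adjusted p under 0.05), against 40.0% and 41.4% of all 12437 genes tested. The median log2 fold change of the members was 0.78, against -0.02 for all genes. Without ZT14 replicate 1 the counts were 30 and 2, against 39.8% and 41.7%. The type I genes split, with Oas genes far higher in macrophages and Ifit1 and Ifit2 not called in either direction.

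Among type I genes 8 of 10 were higher, led by Oas2 (log2 fold change 5.42 ± 0.20 SE), Oas3 (4.97 ± 0.24) and Oasl1 (4.85 ± 0.14). Each SE of a fold change was derived from the test, as its absolute log2 value divided by the square root of the F statistic. Oas2 was at 0.868 ± 0.220 (SD, n = 18) in macrophages and 0.0204 ± 0.0257 in fibroblasts. Isg15, at 0.988 ± 0.720 and 0.725 ± 0.425, overlapped widely between the groups. Ifit1 was at 0.911 ± 0.677 and 0.781 ± 0.307, and did not pass the test. Ifi44, an antiviral protein of the cytoplasm, had the largest difference of all members (5.98 ± 0.27), with 470 UMIs in all macrophages and 65 in all fibroblasts. Ifi47 was the GTPase with the largest difference (2.71 ± 0.10).

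Only Gbp6 (-0.65 ± 0.13) and Usp18 (-0.58 ± 0.11) were lower in macrophages. Usp18 was at 0.354 ± 0.175 in macrophages and 0.483 ± 0.0658 in fibroblasts. Gbp6 is uncertain, since 77.8% of the 50-base stretches in the last 500 bases of its transcripts are shared with other genes, mostly Gbp10. The same holds for Oas1a (56.1%, with Oas1g) and, to a lesser degree, for Ifit3 (14.9%, with Ifit3b). Igtp and Irgm2 had no such shared stretch, although their gene models overlap on the same strand. All 4 transcription factors and all 3 sensors were higher in macrophages. Of the 6 interferon receptor genes, the 5 that were tested (Ifnar1, Ifnar2, Ifngr1, Ifngr2 and Il10rb) were also higher there, with log2 fold changes between 0.26 (Ifngr1) and 2.13 (Il10rb).

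Other immune cells divided the classes further. Against fibroblasts, 13 of 38 members were higher and 13 lower (38% and 43.1% of all genes tested), a balance that moved to 11 and 14 with another scaling, DESeq2's kind of size factor in edgeR (35.5% and 45.8% of all genes), and to 10 and 16 with DESeq2, which changes the test as well (34% and 46.1%). Oas3 (4.34 ± 0.27), Oasl1 (3.73 ± 0.29) and Oas2 (3.18 ± 0.25) were highest, with Ifi44 (2.68 ± 0.64) and Rsad2 (2.15 ± 0.30). Iigp1 (-4.36 ± 0.23), Irgm2 (-2.23 ± 0.20), Gbp6 (-1.93 ± 0.23), Ifit2 (-1.79 ± 0.39) and Cmpk2 (-1.44 ± 0.31) were lower. Without the neutrophil-like cluster 11 were higher and 17 lower (35.4% and 45.5% of all genes).

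Against macrophages, 33 of 38 members were lower in other immune cells and 1 was higher, against 32.2% and 31.8% of all genes tested. Without ZT14 replicate 1 the counts were 33 and 0, against 32.4% and 32%. Iigp1 (-4.70 ± 0.25), Ifi44 (-2.76 ± 0.42), Irgm2 (-2.15 ± 0.22), Oas2 (-2.13 ± 0.25) and Ifit2 (-1.86 ± 0.35) were the lowest. The gene that was higher was Isg15 (0.81 ± 0.32, adjusted p = 0.029), and this call was lost in 9 of 25 alternatives (adjusted p between 0.00198 and 0.425 over all of them), without ZT2 replicate 3, ZT6 replicate 3, ZT10 replicate 1 or 2, or ZT14 replicate 1 or 3, without the neutrophil-like cluster, with DESeq2 and with cells named one by one. Iigp1 was at 0.984 ± 0.493 in macrophages, 0.695 ± 0.249 in fibroblasts and 0.0273 ± 0.0379 in other immune cells.

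**Figure D4:**
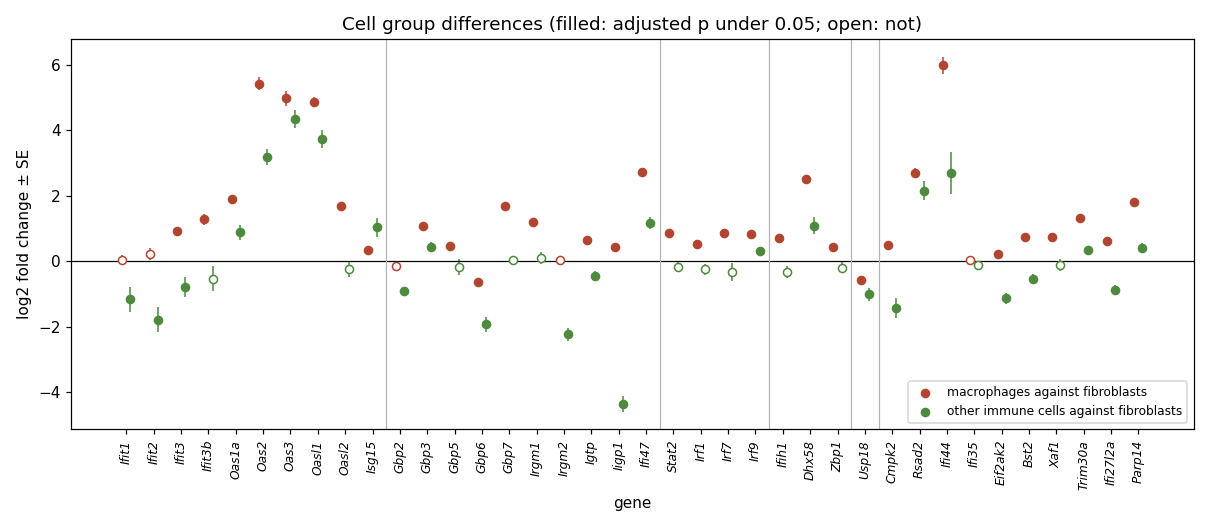
Log2 fold change of each member in macrophages and in other immune cells against fibroblasts of the same 18 libraries, with SE derived from the test statistic as bars. Filled points have an adjusted p under 0.05 and open points do not, classes stand between grey lines, and Oas2, Oas3, Oasl1 and Ifi44 lie highest while Iigp1 lies lowest in other immune cells.

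Time of day accounted for few calls when all 18 libraries were used. A 24 h cosine was fitted to each gene, and its amplitude is the log2 difference between the fitted peak and the mean, which has no SE here. For Ifit2 and the macrophage calls its range over fits that each leave out 1 library is given. In all kept cells 0 of 38 members passed an adjusted p under 0.05 (5.44% of all genes tested did), 0 by DESeq2, and 1 had an unadjusted p under 0.05 (22.3% of all genes). In fibroblasts 1 of 37 did (14.2% of all genes), and it was Ifit2, with an amplitude of 0.21 (0.18 to 0.23), a peak at 9.9 h and an adjusted p of 0.0403. In macrophages 0 of 38 did (0.527% of all genes) and 0 by DESeq2, with 8 at an unadjusted p under 0.05 (12.8% of all genes). In other immune cells 0 of 29 did (0% of all genes) and 0 by DESeq2, with 1 at an unadjusted p under 0.05 (4.94% of all genes). Without ZT2 replicate 3 that number was 9 of 29 (8.05% of all genes), still with 0 calls, and the median amplitude of the members moved from 0.19 to 0.51. JTK_Cycle, the rank test used in the study, called 0 members in each of the 4 sets at an adjusted p under 0.05. The study called genes at a p under 0.05 without adjustment across genes. At that threshold there were 1, 1, 3 and 0 members, where 6.20%, 8.20%, 3.24% and 1.75% of all genes passed.

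Ifit2 in fibroblasts lay between 0.325 and 0.613 UMIs per 10000 (median 0.412 over the other 17), with ZT14 replicate 1 the highest and ZT22 replicate 3 the lowest. Its call was lost in 12 of 27 alternatives that fit a cosine, and also with the test of any difference among the 6 times and with JTK_Cycle. In macrophages the fitted peak of Ifit2 was at 20.8 h with an amplitude of 0.61 (adjusted p = 0.448).

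Without ZT14 replicate 1, macrophages showed a trough of the type I genes around ZT10 and ZT14. Their sums then had means of 8.09 at ZT2, 6.17 at ZT6, 4.75 at ZT10, 3.91 at ZT14, 9.45 at ZT18 and 9.51 at ZT22, and with that library the mean at ZT14 was 8.81 ± 8.49 (SD, n = 3). The GTPase sums had means of 6.82, 5.08, 4.39, 4.65, 6.72 and 7.09 in the same order, and 6.27 at ZT14 with the library. In fibroblasts the type I means without it ran only from 2.42 at ZT14 to 3.14 at ZT22.

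In those 17 libraries 7 of 38 members were called in macrophages (1.02% of all genes), and 29 of 38 had an unadjusted p under 0.05 (12.5% of all genes). The called members were Ifi44 (amplitude 1.25, peak at 0.3 h, adjusted p = 0.000332), Rsad2 (0.81, 22.1 h, adjusted p = 0.0147), Oasl2 (0.56, 22.7 h, adjusted p = 0.0224), Irf7 (0.56, 23.6 h, adjusted p = 0.0245), Cmpk2 (0.66, 22.6 h, adjusted p = 0.0381), Ifit1 (0.81, 21.2 h, adjusted p = 0.0394) and Parp14 (0.39, 23.1 h, adjusted p = 0.0443). None of them is a GTPase, although 7 of the 10 GTPases had an unadjusted p under 0.05, and the classes were not tested against each other. The fitted peak, called or not, lay between 18 and 4 h for all 38 members, against 41.2% of all genes, and with all 18 libraries for 36 of 38, against 39.6%. Leaving out ZT14 replicate 1 gave such peaks elsewhere too. They were found for 28 of 29 members in other immune cells, 35 of 38 in all kept cells and 30 of 37 in fibroblasts (41.7%, 39.6% and 41.7% of all genes). With all 18 libraries the counts in these 3 sets were 15, 22 and 18 (40.8%, 39.9% and 40.7%). Leaving out a library that is high at ZT14 by itself moves fitted peaks away from that time. The members were measured in the same mice, so the counts of peaks are not counts of independent cases and were not tested. The median amplitude of the members in macrophages without ZT14 replicate 1 was 0.43, against 0.16 for all genes. With ZT2 replicate 3 left out as well, 6 members were called (1.06% of all genes). Over fits that each leave out 1 of the 18 libraries, the amplitude ran from 0.69 to 1.25 for Ifi44, 0.61 to 0.81 for Rsad2, 0.39 to 0.56 for Oasl2, 0.32 to 0.56 for Irf7, 0.41 to 0.67 for Cmpk2, 0.67 to 0.87 for Ifit1 and 0.26 to 0.39 for Parp14. These 17 libraries were chosen with the outcome of the left-out library known, so the calls depend on a choice made after seeing it.

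Ifi44 in macrophages was at 0.218, 0.271 and 0.332 UMIs per 10000 in the 3 replicates of ZT2, at 0.152, 0.0459 and 0.125 at ZT6, at 0.0812, 0.0558 and 0.0313 at ZT10, at 0.356, 0.0998 and 0.0321 at ZT14, at 0.185, 0.0377 and 0.0761 at ZT18, and at 0.288, 0.232 and 0.302 at ZT22. The libraries of ZT2 and ZT22 lay above all those of ZT6, ZT10 and ZT18 and above 2 of the 3 of ZT14, and the third of ZT14 was replicate 1. Ifi44 rested on 470 UMIs in the 18 libraries together.

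**Figure D5:**
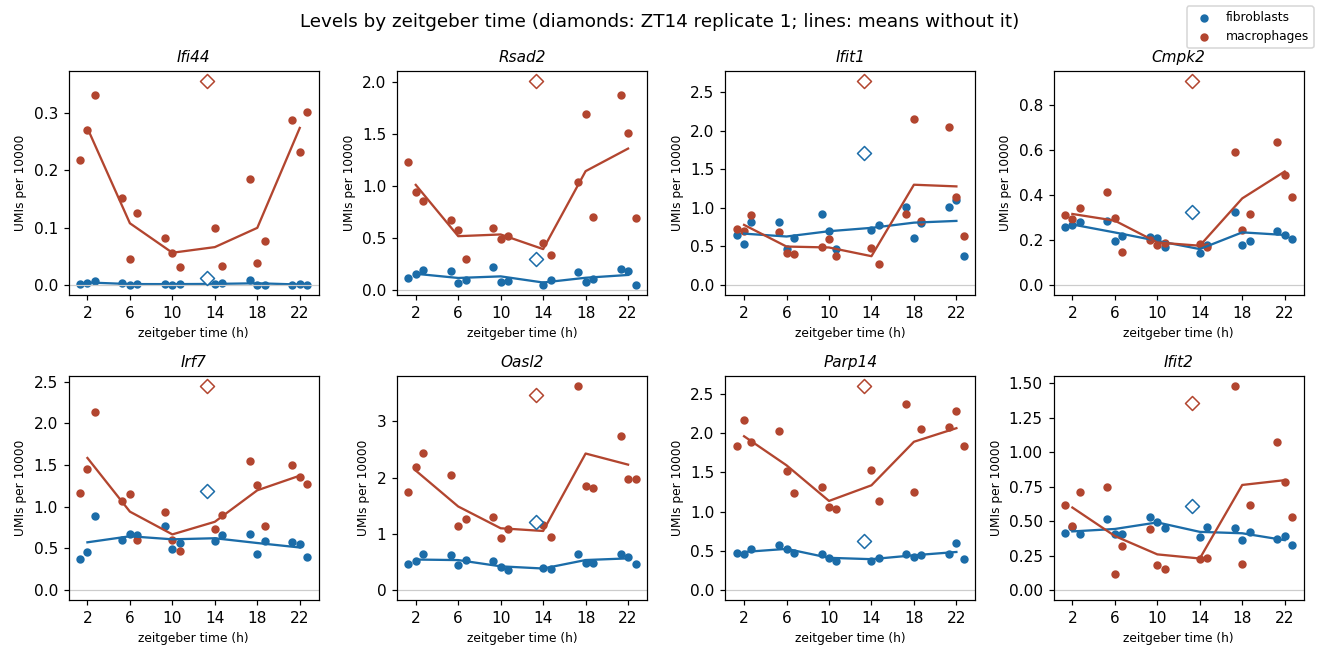
UMIs per 10000 by zeitgeber time in hours in macrophages and fibroblasts for the 7 members called in macrophages without ZT14 replicate 1, and for Ifit2, the member called in fibroblasts. Points are libraries, diamonds are ZT14 replicate 1 and lines join the means without it, which in macrophages are lowest at ZT10 or ZT14 in each panel.

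Elsewhere fewer members were called without that library. In all kept cells they were Parp14 (amplitude 0.28, peak at 1.1 h, adjusted p = 0.0282) and Ifi44 (1.20, 0.2 h, adjusted p = 0.0378), where 7.56% of all genes were called. In fibroblasts they were Cmpk2 (0.30, 2.2 h, adjusted p = 0.022), Ifit2 (0.19, 8.9 h, adjusted p = 0.0223) and Eif2ak2 (0.26, 1.2 h, adjusted p = 0.0387), where 15.9% were. In other immune cells 0 of 29 were called, and 1 had an unadjusted p under 0.05 (3.83% of all genes). When ZT2 replicate 3 was left out too, the counts were 0, 1 and 0 (6.62%, 14.2% and 0% of all genes).

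Whether the 24 h pattern of a gene differed between macrophages and fibroblasts was tested as an interaction over all 18 libraries, with both sums of a mouse kept together. It was called for 2 of 38 members, Irf7 (0.64 on the log2 scale, the amplitude of the difference, adjusted p = 0.0109) and Oasl2 (0.37, adjusted p = 0.0329), against 0.458% of all genes, and 22 of 38 had an unadjusted p under 0.05 against 10.5%. Without ZT14 replicate 1 there were 5, the others being Ifit2 (1.01, adjusted p = 0.0109), Ifit3 (0.62, adjusted p = 0.0343) and Zbp1 (0.43, adjusted p = 0.0425), against 0.702%. ZT14 replicate 1 was high in both groups of cells, and its excess enters both sums.

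Irf7 in macrophages was at 1.17, 1.45 and 2.14 UMIs per 10000 at ZT2, at 1.07, 1.15 and 0.606 at ZT6, at 0.938, 0.597 and 0.469 at ZT10, at 2.445, 0.732 and 0.906 at ZT14, at 1.55, 1.26 and 0.773 at ZT18, and at 1.495, 1.355 and 1.27 at ZT22. In fibroblasts of the same mice it was at 0.371, 0.455 and 0.8935 at ZT2, at 0.604, 0.669 and 0.664 at ZT6, at 0.770, 0.496 and 0.561 at ZT10, at 1.19, 0.586 and 0.657 at ZT14, at 0.672, 0.438 and 0.584 at ZT18, and at 0.573, 0.558 and 0.402 at ZT22. In macrophages all libraries of ZT22 and ZT2 lay above all of ZT10, and in fibroblasts they did not.

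Oasl2 in macrophages was at 1.75, 2.19 and 2.43 at ZT2, at 2.04, 1.15 and 1.27 at ZT6, at 1.30, 0.921 and 1.08 at ZT10, at 3.47, 1.16 and 0.9385 at ZT14, at 3.625, 1.85 and 1.81 at ZT18, and at 2.735, 1.98 and 1.97 at ZT22. In fibroblasts it lay between 0.349 and 0.646 in the 17 libraries other than ZT14 replicate 1, where it was at 1.21. In macrophages all libraries of ZT2, ZT18 and ZT22 lay above all of ZT10 and above replicates 2 and 3 of ZT14.

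Other genes of the pathway were called in fibroblasts, where 14.2% of all genes were, and the amplitudes without ZT14 replicate 1 are given beside those with all 18 libraries. Among 6 receptor genes 3 of 5 tested were called, and all 3 also without that library. They were Il10rb (0.17 and 0.17, peak at 9.4 h, adjusted p = 0.0054), Ifngr2 (0.29 and 0.22, 11.5 h, adjusted p = 0.0148) and Ifngr1 (0.14 and 0.15, 23.6 h, adjusted p = 0.0162). The kinases Jak2 (0.27 and 0.25, 10.5 h, adjusted p = 0.00844) and Jak1 (0.15 and 0.19, 23.8 h, adjusted p = 0.0469), which are bound to the receptors, were called too, Jak1 in 4 of the 18 fits that each leave out 1 library. Of 13 genes of nucleic acid sensing, 10 were tested in fibroblasts, and of 12 genes of antigen processing 12 were. With all 18 libraries both lists held 0 calls by edgeR and 0 genes at an unadjusted p under 0.05. Without ZT14 replicate 1 the sensing list held 2 calls and antigen processing 0, where 15.9% of all genes were called. In macrophages 5, 12 and 12 genes of receptors, sensing and antigen processing were tested. They held 0 calls by edgeR (0.527% of all genes) and 2 genes at an unadjusted p under 0.05 (12.8%). In other immune cells 5, 9 and 12 were tested, with 0 calls (0% of all genes) and 1 gene at an unadjusted p under 0.05 (4.94%). With so few calls among all genes, 0 calls says little about these lists.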

How the data were processed

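The authors sorted live cells from collagenase-digested dorsal dermis of 1 mouse per library, made 10x 3′ v3 libraries, aligned the reads to mm10 and counted UMIs with Cell Ranger 3.1.0. They deposited 1 matrix of raw counts per library, whole numbers of UMIs per gene and barcode with no normalization.

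The study's filter was applied, which takes cells of 850 to 7800 genes with less than 13% of UMIs from mitochondrial genes, and no doublet caller was run. Cells were clustered on 30 principal components of 1960 genes (leidenalg 0.10.2, resolution 0.8, Python 3.11.15), and clusters were named from marker genes. The 1960 genes were those left of 2000 variable genes once members, genes of the pathway lists, clock genes and mitochondrial genes were removed. The authors' integration of libraries was not repeated. UMIs were summed per library and cell group and tested with edgeR 4.0.16 (R 4.3.3, quasi-likelihood test, TMM, filterByExpr, Benjamini-Hochberg adjustment over all genes tested), as cosine and sine terms of 24 h or between cell groups with library as a term. DESeq2 1.42.0 and a rewritten JTK_Cycle (periods of 20 to 28 h, in the order of the collection hours) were alternatives. The edgeR rhythm fit in fibroblasts, macrophages and other immune cells, the comparison of macrophages with fibroblasts and JTK_Cycle were tested on simulated data. The simulated data held no outlying library. The difference test, the other comparisons, the fit in all kept cells and DESeq2 were not simulated. Libraries held between 3777201 and 40094033 UMIs, and intervals and floors (3 counts) cover counting error only. Class sums and ratios were described, not tested.

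The members, classes, marker and pathway lists were chosen with earlier results of these data known. Values were given in full for members past an adjusted p of 0.05 in a rhythm fit, the 3 members of each class with the highest mean level, 6 fixed genes (Usp18, Isg15, Irf7, Stat2, Gbp2 and Irgm1), and the 5 members with the largest called difference in each direction of each cell group comparison. Other members were named where a pattern turned on them, after their values were seen. Each p-value of a rhythm fit within a set of cells measures the spread between single mice. The cell group comparisons and the difference test had library as a term. Their p-values measure how the gap between cell groups varied from mouse to mouse. Same-numbered replicates were collected on the same cycle of the 3 sampled days, per the labels, and correlated weakly, with a median r over 45 pairs of 0.05 in all kept cells, 0.01 in fibroblasts, 0.06 in macrophages and -0.004 in other immune cells. The results of a further pathway list are not reported here.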

Additional observations from a re-analysis of the deposited data

Results flagged for a closer look

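The 24 h pattern of 2 members differed between macrophages and fibroblasts by a test of the difference itself, the interaction of cell group with time over 18 libraries (quasi-likelihood test in edgeR, Benjamini-Hochberg adjustment across the genes tested). The difference had an amplitude of 0.6442 on the log2 scale for Irf7 (adjusted p = 0.0109) and of 0.3707 for Oasl2 (adjusted p = 0.0329). The fitted amplitudes in macrophages were 0.39 for Irf7 (peak at 21.8 h, adjusted p = 0.448) and 0.45 for Oasl2 (peak at 21.2 h, adjusted p = 0.272), so neither gene passed the test in macrophages alone with all 18 libraries. Across the alternatives the Irf7 difference kept its call in 23 of 24, with adjusted p between 2.81e-05 and 0.0504, and the Oasl2 difference in 16 of 24, with adjusted p between 0.000314 and 0.117. The Irf7 call was lost with cells named one by one, and the Oasl2 call with the same setting and without ZT6 replicate 3, ZT10 replicate 1 or 2, ZT14 replicate 2 or 3, or ZT22 replicate 1 or 3.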

How the results depend on the processing

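For the members with the largest called differences in each cell group comparison, no call changed direction under any alternative. The directions of the other members' calls were not followed one by one, and a rhythm amplitude has no sign. Of results on counts of called members and class ratios, 260 of 290 values under the alternatives kept the main result (7 stronger, 21 weaker, 2 moved), and for single members 946 of 1004 did. A count was kept if it changed by no more than a fixed ratio, and a class ratio if it moved by less than the SD over the other libraries. A single member was kept if it stayed called, or stayed uncalled where the main fit did not call it. These shares are therefore high in part by definition. Rhythm calls were the least stable. In fibroblasts the count fell from 1 to 0 with any difference among the 6 times, with cells named one by one, with sums thinned to the macrophage total and with JTK_Cycle. In macrophages it rose from 0 to 4 with no filter on low counts, and to 6 without ZT14 replicate 1 and ZT2 replicate 3, an alternative chosen after seeing the data, as was leaving out the neutrophil-like cluster. The difference between fibroblasts and macrophages rose from 2 to 8 with no filter and fell to 1 with cells named one by one.

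Leaving out 1 library at a time gave between 0 and 2 rhythm calls in all kept cells, 0 and 3 in fibroblasts, 0 and 7 in macrophages, and 0 in other immune cells, and the highest counts of the first 3 came without ZT14 replicate 1. The Ifit2 call in fibroblasts was lost without ZT2 replicate 1 or 3, ZT6 replicate 1, ZT10 replicate 1 or 2, ZT14 replicate 3, ZT18 replicate 2 or any replicate of ZT22. The difference test gave between 1 and 5 calls, with 5 without ZT14 replicate 1 and 1 without ZT6 replicate 3, ZT10 replicate 2, ZT14 replicate 2 or 3, or ZT22 replicate 1 or 3. Cell group comparisons gave 32 to 33, 25 to 28 and 32 to 34 calls (macrophages against fibroblasts, other immune cells against fibroblasts and against macrophages). The cause of these changes was not tested.

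With the replicate number as a block, as a pairing by collection day, rhythm calls were 0 in all kept cells, 1 in fibroblasts, 0 in macrophages and 0 in other immune cells, as without it. The log2 excess of the class ratio in ZT14 replicate 1 moved from 0.51 to 1.05 in fibroblasts with each gene divided by its mean, and from 0.74 to 1.06 in macrophages with Gbp and Irgm genes alone as GTPases. Leaving out other libraries gave 1.03 to 1.05 in all kept cells, 0.51 to 0.53 in fibroblasts, 0.69 to 0.74 in macrophages and 1.97 to 2.15 in other immune cells. With fibroblast sums thinned to the macrophage UMI totals, 5.29% of all genes were called by time of day, against 0.527% in macrophages.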

Other observations

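Other genes that interferons are known to induce were described with the members. Ifitm1, which blocks entry of viruses, was the pathway gene with the largest rhythm call, an amplitude of 1.45 on the log2 scale with a peak at 14.1 h in all kept cells (adjusted p = 0.019) and of 1.07 with a peak at 13.8 h in fibroblasts (adjusted p = 0.0219). Without ZT14 replicate 1 it was not called in all kept cells (0.91, adjusted p = 0.0554), and was in fibroblasts (1.08, adjusted p = 0.0242). Of 26 of these other induced genes tested in fibroblasts, 2 were called with all 18 libraries (14.2% of all genes) and 5 without ZT14 replicate 1 (15.9%). Isg20, an exonuclease, was called in fibroblasts (0.20, 4.0 h, adjusted p = 0.0183, and 0.0220 without that library), and among 15 immediate early and stress genes only Ier3 was called, in all kept cells (0.61, 10.6 h, adjusted p = 0.0355) and in fibroblasts (0.60, 9.7 h, adjusted p = 0.0289), with adjusted p of 0.0176 and 0.0279 without that library. It was called in 9 of 18 fits that each leave out 1 library in all kept cells and in 15 of 18 in fibroblasts. In macrophages 22 of 28 other induced genes tested were higher than in fibroblasts and 5 lower, with a median log2 fold change of 1.27, where 40.0% of all genes were higher and 41.4% lower. Of 13 genes of nucleic acid sensing 10 were higher and 0 lower, and of 12 genes of antigen processing 10 were higher and 0 lower.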
